A study of Mus musculus with 17 samples.

Results

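Transcripts of 10 circadian clock genes were examined in bulk RNA-sequencing libraries of the mouse left ventricular apex. The genes were chosen by symbol, with earlier results of these data known, from the 21798 genes listed in the deposited table: Arntl, Clock, Npas2, Per1, Per2, Per3, Nr1d1, Nr1d2, Dbp and Ciart. All 10 were listed and all passed the filter on low values. The 17 libraries came from male C57Bl6/J mice, aged 7 to 8 weeks at surgery, that were killed 3 weeks after transverse aortic constriction (TAC), which loads the left ventricle with pressure, or after Sham surgery. From 1 week after surgery, mice were gavaged with saline vehicle (Veh) or with 50 μg/kg of 29P, an orally available peptide prodrug of the RGD class, which binds integrins. There were 5 libraries of Sham Veh, 3 of Sham 29P, 3 of TAC Veh and 6 of TAC 29P, each from 1 animal, and no group carried a transgene or a deletion. Libraries are named S1 to S20 by the number in their labels.

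The circadian clock is a transcriptional feedback loop that runs in most cells of the body, cardiomyocytes included. BMAL1, the product of Arntl, pairs with CLOCK or with NPAS2 and switches on genes with E-boxes or similar elements in or near them. Among these are the Period genes, Nr1d1, Nr1d2, Dbp and Ciart. The Period proteins and CIART then oppose the activators, and REV-ERB alpha and beta, the products of Nr1d1 and Nr1d2, repress Arntl, Clock and Npas2. As a result, transcripts of the activators and of the Period genes peak at opposite times of day in the mouse heart, and Nr1d1 is known to peak earlier in the day than Per2.

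The mice lived under a light:dark cycle, but the sources used here give no time of day for tissue collection. Animal numbers in the labels fell into 4 runs. Run 1 held S1 to S11, with 5 TAC 29P libraries, 1 TAC Veh library (S2), 1 Sham 29P library (S4) and 2 Sham Veh libraries (S5 and S6). Run 2 held S12 (TAC Veh), S13 (Sham Veh) and S14 (Sham 29P), run 3 held S15 (Sham 29P) and S16 (TAC Veh), and run 4 held S18 (TAC 29P), S19 and S20 (both Sham Veh). The labels do not call these runs batches. The estimated depth was 14.2 to 23.7 M reads, lowest in S14, and 23.6 to 40.01% of CPM (the counts of a gene per 1 M counts of its library) fell on mitochondrial-encoded genes, the most in S14. Summed CPM of 7 ventricular cardiomyocyte markers lay between 30716 and 47482 in all libraries. Summed CPM of 6 atrial markers was 1624 to 2690 in S18, S19 and S20 and 21.6 to 36.5 elsewhere, with Myl7 (atrial light chain) at 335 to 895 against at most 1.0. Not all 6 markers followed this pattern. Bmp10 was 514 CPM in S18 but at most 0.22 CPM in Sham Veh, the group of S19 and S20, where Nr2f2 spanned only 11.9 to 19.1 CPM. In such bulk samples, fewer cells of a type and less RNA per cell cannot be told apart.

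The promoters of 5 of the genes hold the short elements through which the loop is known to work, and they are printed to show these elements in their sequence. RefSeq start-site windows of 300 bases on GRCm38.p6, the build of the deposited coordinates, were found for 9 of the 10 genes and none for Per2. Letters in capitals mark, on either strand, the E-box CACGTG, the E'-box CACGTT, which reads AACGTG from the other strand, the D-box with the letters TTATGTAA or else TTACGTAA, or the ROR and REV-ERB core with the letters TAGGTCA or else TGGGTCA. None of these motifs contains another.
Ciart, chr3:95882179-95882478, minus strand: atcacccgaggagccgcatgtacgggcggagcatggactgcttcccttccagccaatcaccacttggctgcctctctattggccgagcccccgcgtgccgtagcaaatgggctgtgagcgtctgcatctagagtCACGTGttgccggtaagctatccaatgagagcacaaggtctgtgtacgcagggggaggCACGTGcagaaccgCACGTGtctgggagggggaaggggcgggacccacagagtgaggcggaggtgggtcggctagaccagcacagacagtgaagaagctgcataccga
Per1, chr11:69098699-69098998, plus strand: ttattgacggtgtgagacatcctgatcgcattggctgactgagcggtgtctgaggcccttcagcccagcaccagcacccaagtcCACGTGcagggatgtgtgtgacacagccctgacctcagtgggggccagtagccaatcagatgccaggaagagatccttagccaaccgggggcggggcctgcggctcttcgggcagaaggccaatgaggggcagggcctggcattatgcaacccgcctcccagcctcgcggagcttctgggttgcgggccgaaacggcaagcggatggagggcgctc
Nr1d1, chr11:98775328-98775627, minus strand: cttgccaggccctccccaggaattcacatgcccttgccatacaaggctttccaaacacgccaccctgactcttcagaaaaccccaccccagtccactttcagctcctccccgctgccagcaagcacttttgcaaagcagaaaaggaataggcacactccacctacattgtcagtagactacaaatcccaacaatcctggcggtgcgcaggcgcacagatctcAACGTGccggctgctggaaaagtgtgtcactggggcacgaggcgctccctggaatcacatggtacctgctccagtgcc
Per3, chr4:151044616-151044915, minus strand: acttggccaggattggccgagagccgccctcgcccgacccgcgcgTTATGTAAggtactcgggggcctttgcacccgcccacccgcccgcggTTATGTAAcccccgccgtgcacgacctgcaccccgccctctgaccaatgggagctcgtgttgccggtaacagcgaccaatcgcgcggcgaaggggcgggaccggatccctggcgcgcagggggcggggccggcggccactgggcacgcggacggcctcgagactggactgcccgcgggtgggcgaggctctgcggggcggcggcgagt
Arntl, chr7:113207261-113207560, plus strand: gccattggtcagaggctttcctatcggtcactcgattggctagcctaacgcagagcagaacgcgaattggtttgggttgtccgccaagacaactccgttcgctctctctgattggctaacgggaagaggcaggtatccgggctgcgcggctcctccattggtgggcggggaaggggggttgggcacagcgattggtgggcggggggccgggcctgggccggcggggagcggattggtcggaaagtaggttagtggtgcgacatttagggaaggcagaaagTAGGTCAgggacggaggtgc
Ciart held 3 E-boxes, which begin 116, 58 and 44 bases before the start site, and Per1 held 1 at 166 bases. E-boxes occurred in 7.15% of all 32851 windows. Nr1d1 held an E'-box at 28 bases, present in 4.68% of windows. In Per3, D-boxes (bound by DBP and related factors) began 205 and 158 bases before the start site, and 1.06% of windows held one. Arntl held the core bound by ROR and REV-ERB proteins 30 bases after 1 of its start sites, a motif found in 6.45% of windows. The windows of Clock, Npas2, Nr1d2 and Dbp held none of these letters.

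Among the activators, Arntl (chromosome 7, 113207465 to 113314127 in mm10) varied most. Its CPM was 13.5, 4.30, 2.14, 2.32 and 4.95 in the Sham Veh libraries S5, S6, S13, S19 and S20. In the Sham 29P libraries S4, S14 and S15 it was 7.93, 1.48 and 1.82. In the TAC Veh libraries S2, S12 and S16 it was 6.09, 3.47 and 4.90. Across TAC 29P it was 6.48 to 16.4, with a median of 8.20. Every TAC 29P library thus lay above every TAC Veh library, while both Sham groups held 1 library of run 1 (S5 and S4) at the level of TAC 29P.

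Clock (chromosome 5, 76209868 to 76304793), which encodes a partner of BMAL1, spanned only 1.79-fold over the 17 libraries. Its CPM was 57.8, 35.6, 34.1, 32.3 and 39.1 in Sham Veh (in the same library order) and 52.0, 38.8 and 32.7 in Sham 29P. It was 50.4, 42.6 and 50.0 in TAC Veh and 50.2 to 55.8, with a median of 52.5, in TAC 29P. The highest value of all belonged to a Sham library, S5. Npas2 (chromosome 1, 39193731 to 39363237), the alternative partner, was low throughout. Its CPM was 4.21, 0.63, 1.09, 1.07 and 1.25 in Sham Veh and 3.14, 0.63 and 0.94 in Sham 29P. It was 2.44, 1.96 and 2.35 in TAC Veh and 1.57 to 6.54, with a median of 2.95, in TAC 29P. As with Arntl and Clock, S5 and S4 were the highest libraries of their groups.

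The Period genes encode the repressors that close the loop, and in both Sham groups S5 and S4 were their lowest libraries. Per1 (chromosome 11, 69095217 to 69109961) had a CPM of 8.62, 20.5, 47.6, 23.5 and 48.4 in Sham Veh and 14.6, 27.8 and 41.1 in Sham 29P. It was 48.4, 74.0 and 57.8 in TAC Veh and 12.6 to 44.6, with a median of 21.5, in TAC 29P. TAC 29P and TAC Veh did not overlap, the 6 libraries of the former being lower. Per2 (chromosome 1, 91415982 to 91459325) had a CPM of 5.13, 8.95, 31.7, 20.7 and 19.6 in Sham Veh and 7.19, 20.9 and 34.4 in Sham 29P. It was 14.5, 28.8 and 26.8 in TAC Veh and 4.80 to 30.7, with a median of 8.27, in TAC 29P. All 4 groups overlapped, and in each of them the libraries of run 1 were the lowest. Per3 (chromosome 4, 151003652 to 151044666) had a CPM of 12.7, 14.6, 43.5, 14.97 and 16.2 in Sham Veh and 17.2, 30.9 and 25.3 in Sham 29P. It was 32.3, 54.2 and 18.4 in TAC Veh and 12.8 to 25.5, with a median of 21.0, in TAC 29P. The highest libraries of 3 groups, S12, S13 and S14, belonged to run 2.

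Nr1d1 (chromosome 11, 98767932 to 98775334) did not follow the Period genes over all libraries. Its CPM was 74.4, 42.7, 81.8, 59.1 and 86.4 in Sham Veh and 87.2, 39.3 and 65.2 in Sham 29P. It was 136, 88.1 and 75.6 in TAC Veh and 85.4 to 126, with a median of 101, in TAC 29P. Of the 9 TAC libraries, 7 lay above all 8 Sham libraries. Exons of Nr1d1 share 263 bases, 8.55% of its exonic length, with Thra on the opposite strand. The paper names a strand-specificity reagent for library preparation, but the strand setting of the counting is not given in the sources used here. Reads counted from that stretch may therefore belong to either gene. Nr1d2 (chromosome 14, 18204054 to 18239128) had a CPM of 97.6, 108, 152, 121 and 131 in Sham Veh and 103, 206 and 167 in Sham 29P. It was 128, 153 and 132 in TAC Veh and 103 to 165, with a median of 113, in TAC 29P. In each group, as for Per2, the libraries of run 1 were the lowest.

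Dbp (chromosome 7, 45705088 to 45710204) encodes a PAR bZip factor that carries the rhythm to output genes through D-boxes. Its CPM was 43.6, 54.5, 124, 59.0 and 79.9 in Sham Veh and 60.6, 72.3 and 99.8 in Sham 29P. It was 121, 128 and 59.5 in TAC Veh and 49.2 to 94.7, with a median of 75.6, in TAC 29P. All groups overlapped, and 18.01% of the exonic length of Dbp is shared with Sphk2 on the opposite strand. Ciart (chromosome 3, 95878503 to 95882252), whose product represses BMAL1 and CLOCK, had a CPM of 2.19, 4.14, 14.5, 7.95 and 13.9 in Sham Veh and 2.49, 11.7 and 14.3 in Sham 29P. It was 9.82, 11.8 and 9.58 in TAC Veh and 2.85 to 6.80, with a median of 4.85, in TAC 29P. As with Per1, no TAC 29P library reached the lowest TAC Veh library.

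**Figure D1:**
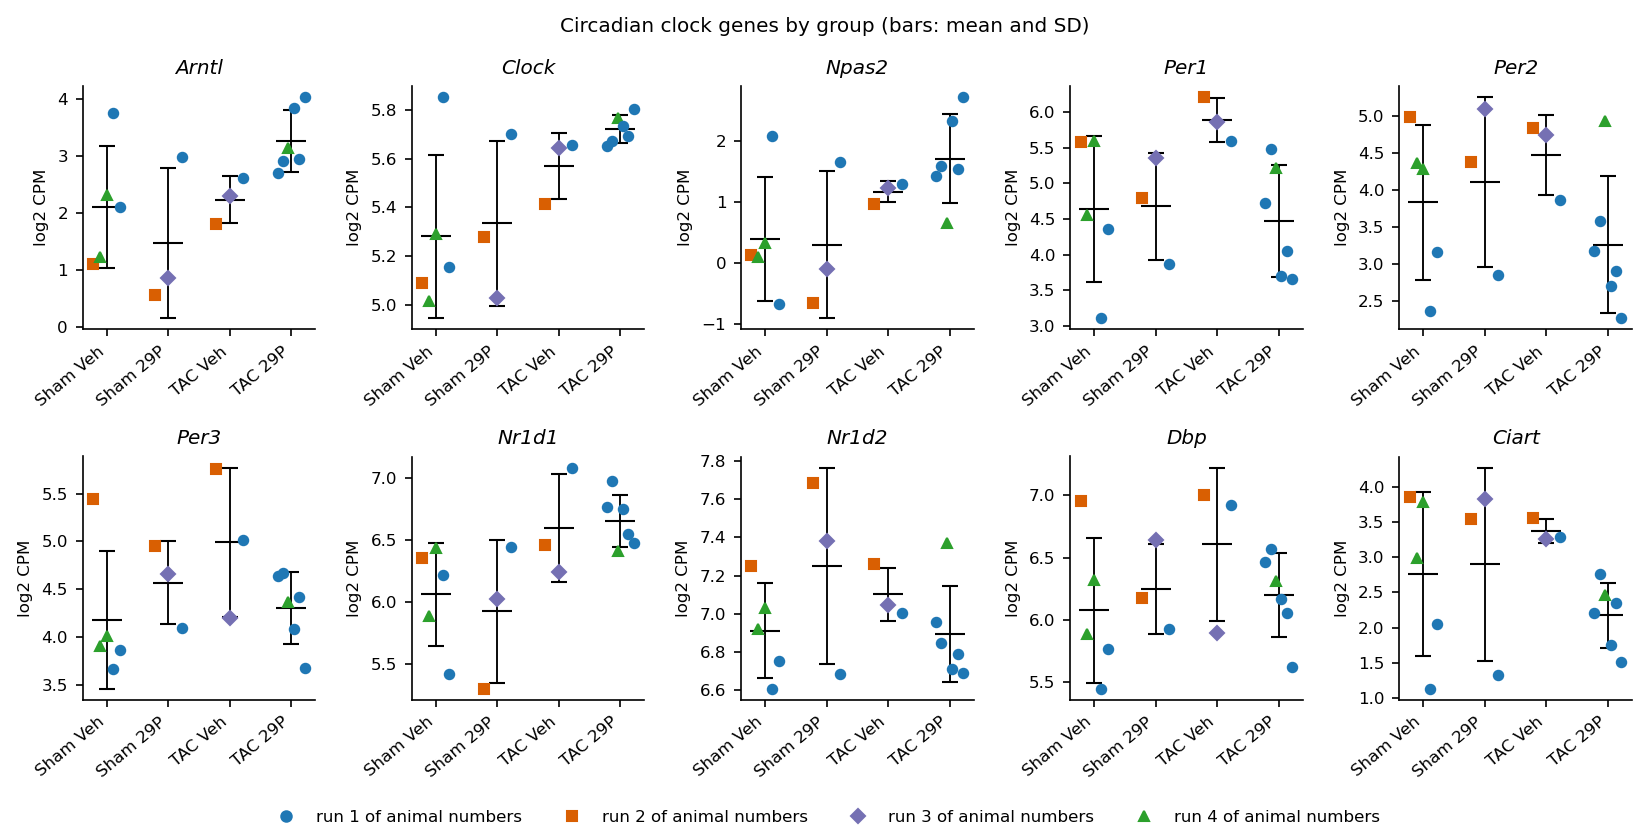
Expression of the 10 clock genes (y axis, log2 CPM) in the 4 groups (x axis). Each point is 1 library, its symbol and colour give the run of animal numbers, and black bars give the group mean and SD. Libraries of run 1 were the lowest of every group for Per2, and S5 and S4, the highest points of Arntl in Sham Veh and Sham 29P, were the lowest of Per2 in those groups.

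Within groups, the activators and the other genes moved in opposite directions. Correlations were computed on log2 CPM after subtraction of each group's mean, over the same 17 libraries, and are given as descriptions. Arntl correlated with Clock at r = 0.89 and with Npas2 at r = 0.83. Arntl and Ciart correlated at r = −0.84, Arntl and Nr1d2 at −0.77 and Arntl and Per2 at −0.77. Of the 21 pairs that joined 1 activator with 1 of the 7 other genes, 18 were negative, with a median of −0.67, and the 3 positive pairs were those with Nr1d1 (0.29 to 0.52). Among the 7 others, the 15 pairs without Nr1d1 were all positive (0.54 to 0.89, median 0.74), led by Per1 with Ciart at 0.89 and Per3 with Dbp at 0.88. Pairs of Nr1d1 with these others went from −0.33 (Nr1d2) to 0.41 (Dbp). Within run 1 alone they were all positive, from 0.11 (Ciart) to 0.52 (Dbp). The same 18 pairs were negative within the 9 libraries of run 1 alone (median of all 21 pairs −0.59), after the run means were removed as well (−0.50), and without S18, S19 and S20 (−0.73). They were also negative without the 2 farthest from the median of the first gene of each pair, where the median of the 21 pairs was weaker at −0.42 and Clock with Npas2 fell from 0.75 to 0.38. With TMM scaling, which sets libraries to a trimmed mean of their gene ratios, 19 of the 21 pairs were negative and their median was −0.77. Libraries share their depth and totals, so the pairs are not independent. A single component held 66.8% of the variance of the 10 genes within groups.

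**Figure D2:**
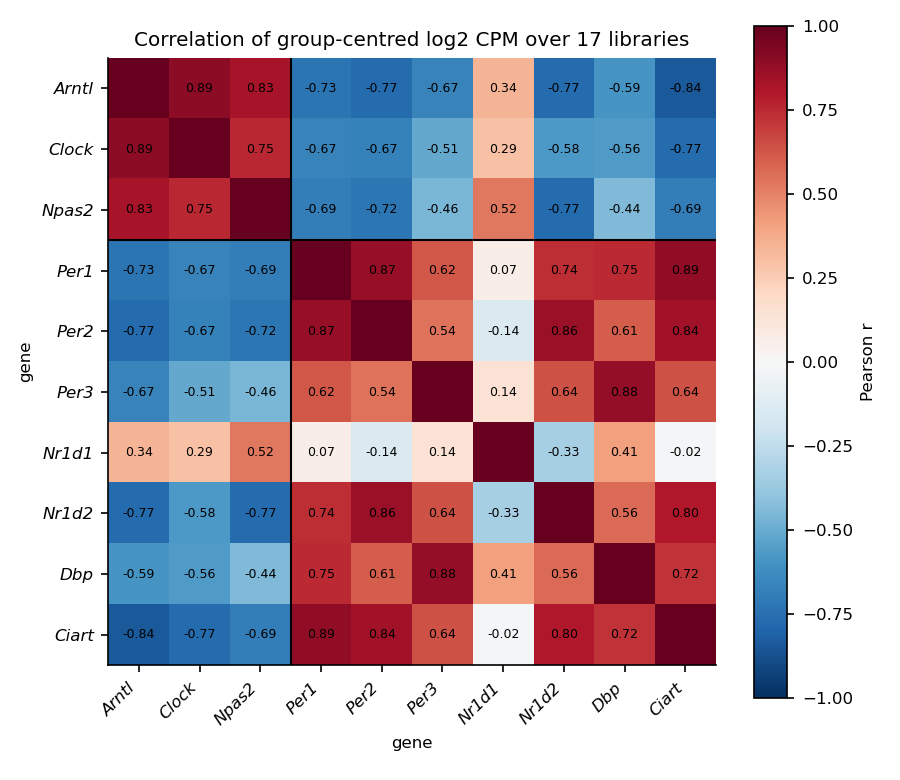
Pearson correlation (colour and printed value) of group-centred log2 CPM between each pair of clock genes, named on both axes, over 17 libraries. Black lines part the activators Arntl, Clock and Npas2 from the 7 other genes. Arntl was at −0.84 with Ciart and −0.77 with Per2, and at 0.34 with Nr1d1.

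To place each library along this axis, the mean log2 CPM of the 7 other genes was subtracted from that of Arntl, Clock and Npas2. The difference was −3.67 to −0.18 in Sham Veh (median −2.72), −3.64 to −1.01 in Sham 29P (median −3.54), −3.15 to −2.26 in TAC Veh (median −2.36) and −2.11 to −0.09 in TAC 29P (median −1.54). TAC 29P libraries were therefore the most shifted towards the activators as a group, yet S5 (Sham Veh, −0.18) stood beside S9 (−0.09), the most shifted TAC 29P library. By run, the difference was −2.36 to −0.09 in run 1 and −3.67 to −2.11 in runs 2 to 4. Within Sham surgery it was −2.29 to −0.18 in run 1 (n = 3) and −3.67 to −2.72 in runs 2 to 4 (n = 5), with no overlap. Within TAC it was −2.36 to −0.09 in run 1 (n = 6) and −3.15 to −2.11 in runs 2 to 4 (n = 3). The 5 TAC 29P libraries of run 1 lay above S2, the only TAC Veh library of that run, and S18, the TAC 29P library of run 4, lay above S12 and S16 of runs 2 and 3.

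**Figure D3:**
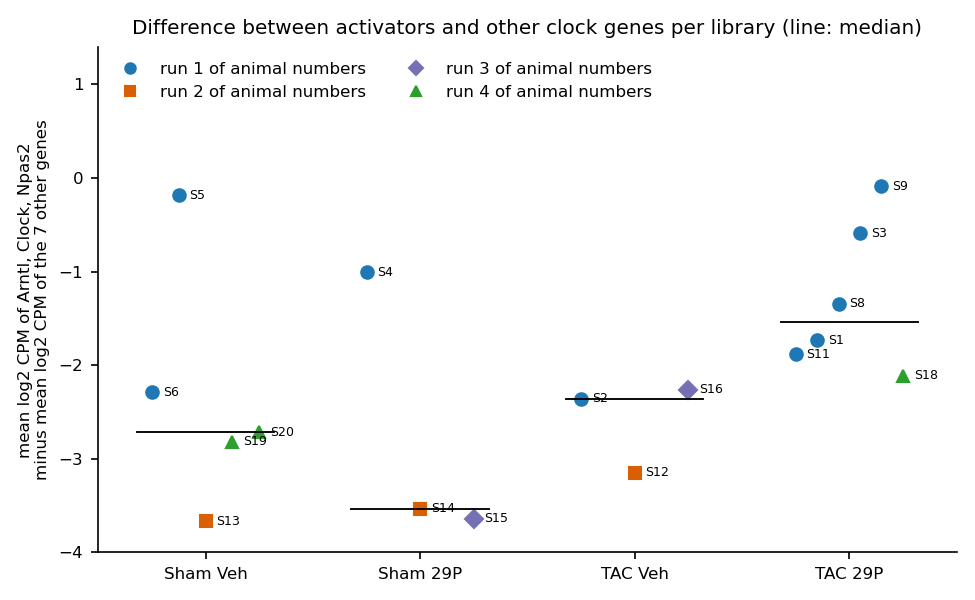
Mean log2 CPM of Arntl, Clock and Npas2 minus that of the 7 other clock genes (y axis, log2 units) for each library, by group (x axis). Symbols give the run of animal numbers and black lines the group medians. Run 1 libraries reached from −2.36 to −0.09, and those of runs 2 to 4 from −3.67 to −2.11.

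The spread of the clock genes between animals of 1 group was large. The residual SD of log2 CPM within groups was 0.96 for Per2, 0.90 for Ciart, 0.87 for Arntl, 0.86 for Npas2 and 0.81 for Per1, which placed these 5 genes between the 90.5th and 93.4th percentile of the 16218 genes tested. For Per3, Dbp and Nr1d1 the percentiles were 81.7, 74.4 and 64.7. Nr1d2, at 47.6, and Clock, at 34.6, were not unusual. For some of the 10 genes, much of this spread lay between the runs. A term for the run, added to the group means after the data had been seen, was called (Benjamini-Hochberg adjusted p of 0.05 or less over all genes, limma) for 3.17% of all genes and for 2 of the 10 clock genes, Per2 (adjusted p = 0.00478) and Nr1d2 (adjusted p = 0.0260). Runs took up 80.4% of the variance of Per2 within groups, 76.5% of that of Nr1d2, 62.7% of that of Per3, 55.2% of that of Ciart and 50.6% of that of Arntl. The shares were 46.5% for Per1, 33.9% for Clock and 31.5% for Npas2. The median of all genes was 28.8%, and Nr1d1, at 13.1%, and Dbp, at 25.9%, lay below it. At an unadjusted p of 0.05, the run was past the threshold for 6 clock genes and for 17.1% of all genes.

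Per2 separated run 1 from the other runs without overlap, whatever the surgery or treatment. Its CPM was 4.80 to 14.5 in the 9 libraries of run 1 and 19.6 to 34.4 in the 8 others. Only 0.148% of the genes tested (24 genes) were lower throughout run 1 in this way, and 0.0432% were higher. Per2 was the only one of the 10 among them. From a list of 13 other core clock genes, Cry1, which encodes a repressor that acts with the Period proteins, was another, at 4.63 to 7.24 CPM in run 1 and 8.03 to 10.97 CPM in the other runs. From a list of 9 clock outputs known in heart, so was Wee1, a cell cycle kinase gene, at 6.56 to 9.58 CPM and 14.7 to 20.8 CPM. Since no collection time is given, whether the runs were collected at different times of day was not tested. Run 4 consisted of S18, S19 and S20, the libraries with atrial transcripts. Runs took up a median of 73.9% of the variance within groups for atrial markers and 56.3% for endothelial markers. The medians were 39.0% for fibroblast, 28.9% for macrophage, 26.8% for ventricular and 5.89% for red blood cell markers. The part of tissue content in the differences between runs was not tested.

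**Figure D4:**
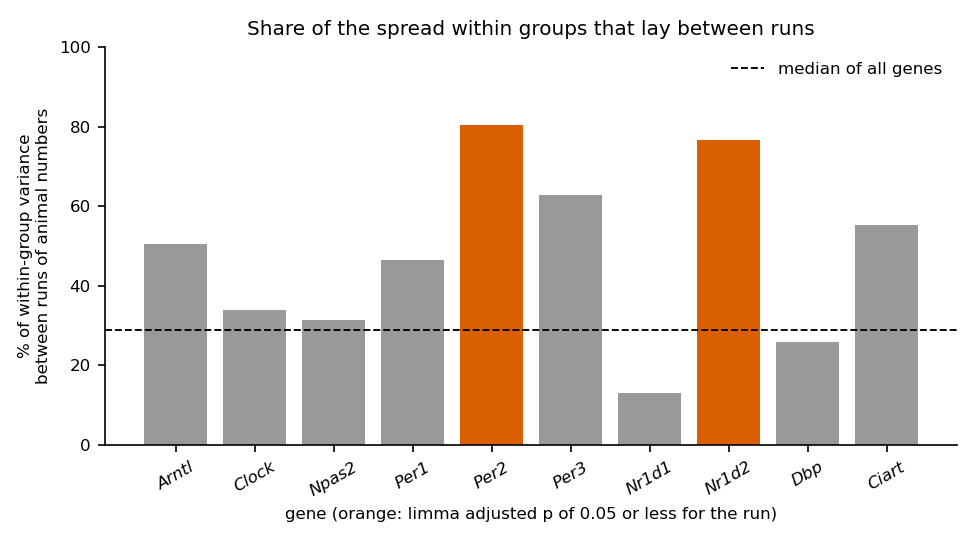
Share of the variance of log2 CPM within groups that lay between the 4 runs of animal numbers (y axis, %) for each clock gene (x axis). Orange bars mark genes with a limma adjusted p of 0.05 or less for the run and the dashed line is the median of all genes, 28.8%. Per2 (80.4%) and Nr1d2 (76.5%) were highest and Nr1d1 (13.1%) lowest.

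How TAC changed the clock genes was asked first in all 17 libraries, as the mean of both TAC groups minus that of both Sham groups. By limma, 4 of the 10 genes were called, all higher in TAC, where 49.4% of all genes were called higher and 3.08% lower (52.5% in either direction). Mean log2 CPM of Nr1d1 was 6.60 ± 0.44 (SD, n = 3) in TAC Veh and 6.66 ± 0.21 (n = 6) in TAC 29P, against 6.06 ± 0.42 (n = 5) in Sham Veh and 5.92 ± 0.58 (n = 3) in Sham 29P. It rose by 0.63 on the log2 scale (SE 0.18, adjusted p = 0.00740, exact permutation p = 0.00156). Npas2 rose by 1.09 (SE 0.39, adjusted p = 0.0287, exact permutation p = 0.0130), Arntl by 0.96 (SE 0.39, adjusted p = 0.0468, exact permutation p = 0.035) and Clock by 0.34 (SE 0.12, adjusted p = 0.0217, exact permutation p = 0.00662). These permutation tests compared the plain mean of all 9 TAC libraries with that of all 8 Sham libraries, without regard to treatment. Of these, 6 TAC and 3 Sham libraries came from 29P mice. The differences so computed were 0.63 for Nr1d1, 1.17 for Npas2, 1.05 for Arntl and 0.37 for Clock. The share called among the clock genes was thus near that of all genes. The median of all genes was itself 0.36 higher in TAC and 0.02 higher after TMM scaling. Mitochondrial-encoded genes held 23.6 to 29.4% of CPM in TAC and 29.1 to 40.01% in Sham. Relative to that median, the differences were 0.73 for Npas2, 0.60 for Arntl, 0.28 for Nr1d1 and −0.02 for Clock. After TMM scaling none of the 10 genes was called (14.1% of all genes higher and 12.9% lower), with 0.75 for Npas2 (adjusted p = 0.13), 0.63 for Arntl (adjusted p = 0.205), 0.30 for Nr1d1 (adjusted p = 0.123) and 0.00 for Clock (adjusted p = 0.991).

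The 6 uncalled genes were Per1 (0.52, 95% interval −0.24 to 1.28), Per3 (0.27, −0.27 to 0.82), Dbp (0.24, −0.21 to 0.69), Ciart (−0.06, −0.90 to 0.78), Nr1d2 (−0.08, −0.37 to 0.20) and Per2 (−0.10, −0.998 to 0.80), all in log2 units, of which Per3 (−0.06) and Dbp (−0.09) changed sign after TMM scaling. With the run as a covariate (48.9% of all genes higher and 3.11% lower), the genes called were Nr1d1 (0.59, adjusted p = 0.0167), Clock (0.28, adjusted p = 0.0397) and Per1 (0.76, adjusted p = 0.0434). The median of all genes was itself 0.35 higher in TAC in that fit, which exceeds the difference of Clock. Within run 1 alone, Nr1d1 was the only gene called (0.74, limma adjusted p = 0.0219, 31.7% of all genes called and 30.6% called higher), and all 6 TAC libraries lay above the 3 Sham libraries (exact permutation p = 0.0119, the smallest that 6 against 3 allow). That separation held for 30.3% of all genes. Arntl differed by only 0.22 within run 1 (adjusted p = 0.661). When each library was left out in turn, Nr1d1 remained called in 17 of 17 fits, Clock in 15, Npas2 in 13 and Arntl in 4. In those fits the median of all genes was 0.31 to 0.40 higher in TAC. Clock was lost without S15 (0.26) or S2 (0.32), Npas2 without S14 (0.85), S15 (0.99), S2 (1.06) or S16 (1.07), and Arntl (0.73 to 1.34) stayed called only without S1, S4, S5 or S12. Without S18, S19 and S20 (46.1% of all genes higher and 2.89% lower), Nr1d1 (0.69) and Npas2 (1.13) were called and Arntl (0.86, adjusted p = 0.113) and Clock (0.29, adjusted p = 0.0720) were not. Summed markers of other cells also differed with TAC. Those of fibroblasts were 643 to 1144 CPM in Sham and 989 to 2105 CPM in TAC, those of macrophages 172 to 315 and 351 to 544 CPM, those of endothelial cells 413 to 855 and 727 to 1091 CPM, and those of red blood cells 562 to 2463 and 1036 to 4992 CPM (5 genes each). Their part in the differences of the clock genes was not tested.

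Within Veh mice, no clock gene was called between TAC and Sham by limma, where 24.4% of all genes were. At an unadjusted p of 0.05, 3 of the 10 passed and 40.9% of all genes did. These were Per1 (1.25, SE 0.52, adjusted p = 0.0812), Per3 (0.81, SE 0.37, adjusted p = 0.111) and Nr1d1 (0.54, SE 0.25, adjusted p = 0.122), and no exact permutation p among the 10 reached 0.05 (0.0536 for Per1). Leaving out S13 brought Per1 (1.48, adjusted p = 0.0471) and Per3 (1.13, adjusted p = 0.0168) past the threshold. Leaving out S20 did so for Per1 (1.49, adjusted p = 0.0481), and leaving out S5 for Clock (0.43, adjusted p = 0.0245). Other libraries moved values the other way, Per3 to 0.43 without S12, Nr1d1 to 0.29 without S2 and Per1 to 0.87 without S5. The remaining differences were 0.14 for Arntl, 0.29 for Clock, 0.77 for Npas2, 0.65 for Per2, 0.19 for Nr1d2, 0.53 for Dbp and 0.61 for Ciart.

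Within 29P mice, TAC libraries were higher than Sham libraries for 2 called genes, against 31.4% of all genes called higher and 1.12% lower (32.5% in all). Arntl rose by 1.79 on the log2 scale (SE 0.54, adjusted p = 0.0228, exact permutation p = 0.0476) and Nr1d1 by 0.73 (SE 0.25, adjusted p = 0.0336, exact permutation p = 0.0238). Npas2 (1.404, adjusted p = 0.0573) and Clock (0.38, adjusted p = 0.0715) missed the threshold and passed only unadjusted, where 45.5% of all genes did. After TMM scaling (6.06% of all genes higher and 4.58% lower) Arntl (1.45, adjusted p = 0.0720) and Nr1d1 (0.40, adjusted p = 0.193) were no longer called, and Nr1d2 was called lower (−0.69, adjusted p = 0.0483). The Sham 29P group held only 1 library of run 1, S4, and the TAC 29P group 5 of 6. Without S4, 6 genes were called, with Arntl and Nr1d1 joined by Npas2 (2.08), Clock (0.57), Nr1d2 (−0.64) and Ciart (−1.52), whereas without S14 none was (Arntl 1.33, adjusted p = 0.162, and Nr1d1 0.42, adjusted p = 0.266), nor without S15 (Arntl 1.48, adjusted p = 0.0922, and Nr1d1 0.78, adjusted p = 0.0624). S14 had the lowest estimated depth (14.2 M reads), the highest mitochondrial-encoded share (40.01% of CPM) and the most genes listed at 0 (3538) of all libraries. Nr1d1 was also lost without S1 (0.71), S3 (0.71) or S11 (0.67). Without S5, whose group is not part of this comparison but shares its variance estimate, 4 genes were called, Npas2 and Clock being added, and without S6 or S18 Npas2 alone was added. With the run as a covariate (4.19% of all genes higher and 0.166% lower), neither Arntl (0.96, adjusted p = 0.207) nor Nr1d1 (0.51, adjusted p = 0.255) was called, nor was any other clock gene. The uncalled differences without the covariate were −0.85 for Per2, −0.73 for Ciart, −0.36 for Nr1d2, −0.26 for Per3, −0.20 for Per1 and −0.05 for Dbp.

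The effect of 29P after TAC was asked by comparing TAC 29P with TAC Veh. By limma no gene of the table was called (0.0%), and every adjusted p of the clock genes was 1. Mean log2 CPM in TAC 29P and TAC Veh was 4.47 ± 0.78 (SD, n = 6) and 5.89 ± 0.31 (n = 3) for Per1, 2.17 ± 0.47 and 3.37 ± 0.17 for Ciart, and 3.26 ± 0.55 and 2.23 ± 0.41 for Arntl. At an unadjusted p of 0.05, 2 of the 10 passed, Per1 at −1.42 (SE 0.50, 95% interval −2.47 to −0.36) and Ciart at −1.20 (SE 0.56, −2.37 to −0.03), as did 1.98% of all genes. The groups did not overlap for Per1, Ciart and Arntl (1.03, SE 0.54, −0.11 to 2.17), where 0.839% of all genes were higher and 0.987% lower in every TAC 29P library than in every TAC Veh library. Unadjusted exact permutation p-values were 0.0119 for Ciart, the smallest possible, 0.0238 for Per1, 0.0238 for Clock and 0.0357 for Arntl. Per2 (−1.22, −2.47 to 0.03), Per3 (−0.68, −1.44 to 0.07) and Dbp (−0.41, −1.04 to 0.22) had the same sign as Per1. Without S12, Per3 was at −0.30 and Dbp at −0.21, and without S16 they were at −1.08 and −0.77. Clock (0.15), Npas2 (0.54), Nr1d1 (0.06) and Nr1d2 (−0.21) were not called either. Treatment and run cannot be told apart here, because 5 of 6 TAC 29P libraries but 1 of 3 TAC Veh libraries belonged to run 1. With the run as a covariate the differences were −0.84 for Per1, −0.40 for Ciart and 0.20 for Arntl. Within run 1, Per1 was 48.4 CPM in S2 and 12.6 to 44.6 CPM in the 5 TAC 29P libraries. Ciart was 9.82 CPM in S2 and 2.85 to 6.80 CPM in those 5, and Arntl was 6.09 CPM in S2 and 6.48 to 16.4 CPM.

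**Figure D5:**
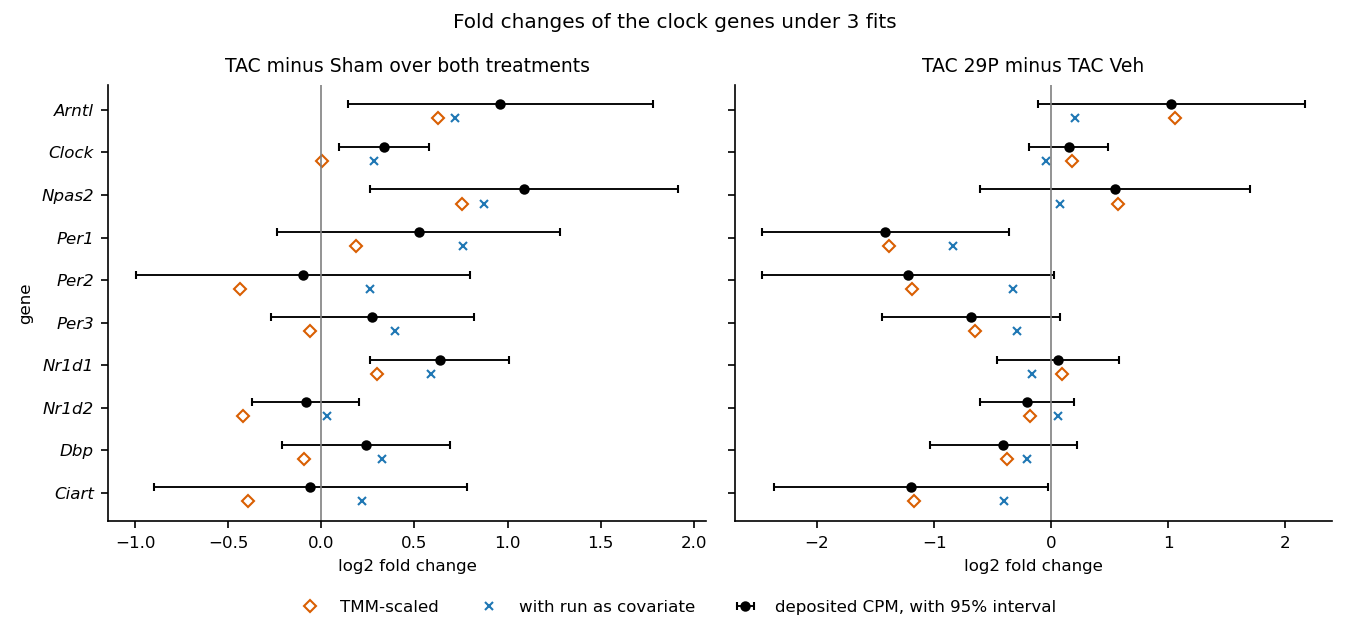
Log2 fold change (x axis) of each clock gene (y axis) for TAC minus Sham over both treatments (left) and for TAC 29P minus TAC Veh (right). Black points and bars are the limma estimates from the deposited CPM with 95% intervals, orange diamonds the estimates after TMM scaling and blue crosses those from a fit with a term for the run. After TMM scaling, Clock was at 0.00 on the left, and with the run as covariate Arntl was at 0.20 on the right.

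Within Sham mice, 29P was not accompanied by a called change in any clock gene, where 0.00617% of all genes (1 gene) were called. None of the 10 passed at an unadjusted p of 0.05 either, against 7.49% of all genes, and the lowest exact permutation p was 0.25. The intervals were wide, for example −1.80 to 0.55 for Arntl and −0.08 to 0.75 for Nr1d2. The differences were −0.62 for Arntl, 0.05 for Clock, −0.09 for Npas2, 0.04 for Per1, 0.28 for Per2, 0.39 for Per3, −0.14 for Nr1d1, 0.34 for Nr1d2, 0.17 for Dbp and 0.14 for Ciart. Whether the change with TAC differed between 29P and Veh mice was tested as an interaction, which called none of the 10 genes and 0.00617% of all genes by limma. At an unadjusted p of 0.05 only Arntl passed (1.65, SE 0.78, adjusted p = 0.998), as did 2.84% of all genes. The other estimates were 0.63 for Npas2, 0.20 for Nr1d1, 0.09 for Clock, −0.55 for Nr1d2, −0.58 for Dbp, −1.08 for Per3, −1.33 for Ciart, −1.45 for Per1 and −1.50 for Per2.

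Other clock genes were taken from lists. Of 13 further core clock and PAR bZip genes, 4 were called higher and none lower in TAC over both treatments (49.4% and 3.08% of all genes). They were Timeless (0.98, adjusted p = 0.000175), Bhlhe41 (0.65, adjusted p = 0.000727), Bhlhe40 (0.71, adjusted p = 0.00119) and Arntl2 (0.66, adjusted p = 0.0115), by limma. Bhlhe40 and Bhlhe41 encode the DEC repressors of BMAL1 and CLOCK, and Arntl2 a paralog of Arntl. The median of this list was 0.18 against 0.36 for all genes. After TMM scaling (14.1% of all genes higher and 12.9% lower) Timeless (0.64) and Bhlhe40 (0.38) were still called higher, and 2 genes were called lower, among them Hlf (−0.84, adjusted p = 0.0329), a PAR bZip factor like Dbp. The same 4 genes were called higher in Veh mice alone (24.4% of all genes called in either direction), and Timeless (0.94), Bhlhe40 (0.63) and Bhlhe41 (0.47) in 29P mice (31.4% of all genes higher and 1.12% lower), where Hlf was called lower (−0.99, adjusted p = 0.0469). Between TAC 29P and TAC Veh none of the 13 was called or passed at an unadjusted p of 0.05, and the 2 with the smallest p were Cry1 (−0.49) and Tef (−0.44). For the run, 3 of the 13 were called by limma (3.17% of all genes), Nfil3 (adjusted p = 0.00106), Cry1 (adjusted p = 0.0174) and Hlf (adjusted p = 0.0343). Nfil3, which encodes a D-box repressor, was 10.9 to 26.6 CPM in runs 3 and 4 and 5.22 to 8.70 CPM in runs 1 and 2.

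Enzymes that modify clock proteins were taken as a second list. Of 8 kinases and ubiquitin ligase genes, 5 were called higher in TAC over both treatments (49.4% of all genes higher and 3.08% lower), with a median of 0.37, close to that of all genes. These were Fbxw11 (0.47, adjusted p = 0.000383), Csnk1d (0.58, adjusted p = 0.000850), Gsk3b (0.30, adjusted p = 0.00298), Btrc (0.35, adjusted p = 0.00950) and Csnk1e (0.40, adjusted p = 0.0278), by limma. Only Csnk1d (0.24, adjusted p = 0.0386), which encodes a kinase of the Period proteins, stayed called higher after TMM scaling, and 2 of the list were then called lower (14.1% of all genes higher and 12.9% lower). Within Veh mice, 3 of the 8 were called higher in TAC by limma (24.4% of all genes called in either direction). Within 29P mice 2 were (31.4% of all genes higher and 1.12% lower), and neither comparison called any of the 8 lower. None of the 8 was called for the run, and none between TAC 29P and TAC Veh. Of 9 clock outputs known in heart, 1 was called higher and 1 lower in TAC by limma (49.4% and 3.08% of all genes), with a median of −0.19. Tspan4 differed by 0.67 (adjusted p = 0.00287) and Nampt, the rate-limiting enzyme of NAD salvage, fell by 0.51 (adjusted p = 0.000898) and by 0.84 after TMM scaling. TMM scaling gave 5 lower calls in this list (12.9% of all genes), including Klf15 (−0.80, adjusted p = 0.00936), a regulator of heart metabolism. From the deposited CPM, 1 of the 9 was called higher and 1 lower within Veh mice (24.4% of all genes in either direction). Within 29P mice none was called higher and 1 lower (31.4% and 1.12% of all genes). For the run, Wee1 (adjusted p = 0.000172) and Pdk4 (adjusted p = 0.000634), which encodes a kinase that limits pyruvate oxidation, were called by limma (2 of 9, and 3.17% of all genes). Pdk4 was 624 to 935 CPM in run 1, 113 to 280 CPM in run 2 and 297 to 674 CPM in runs 3 and 4.

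Genes known to respond to stress were examined as 3 lists, and Per1 is itself a known target of the glucocorticoid receptor. Of 8 glucocorticoid-responsive genes, 5 were called for the run by limma (3.17% of all genes), with a median share of 72.4% of the variance within groups. Fkbp5 (adjusted p = 0.000569) was 32.7 to 104 CPM in S15, S16, S18, S19 and S20 and 8.67 to 20.2 CPM in the 12 other libraries. Zbtb16 (adjusted p = 0.00524) was 41.9 to 101 CPM in those 5 libraries and 5.10 to 37.5 CPM elsewhere. None of the 8 was called in any of the 6 comparisons between groups, and between TAC 29P and TAC Veh only Tsc22d3 (−0.88) passed at an unadjusted p of 0.05. Of 8 immediate-early genes, 3 were called higher in TAC over both treatments (49.4% of all genes), Junb (1.05), Ier2 (0.91) and Jun (0.59), of which Junb (0.72) stayed called after TMM scaling, and 1, Atf3 (adjusted p = 0.000126 by limma), was called for the run (3.17% of all genes). Of 6 temperature-responsive genes, none was called in any comparison or for the run, and Hspa1a was 176 CPM in S18 and 1.53 to 28.7 CPM elsewhere. In S12, S13 and S14, the libraries of run 2 with 20.9 to 31.7 CPM of Per2, Fkbp5 was 15.9, 12.2 and 9.94 CPM. Tsc22d3 was 140, 98.8 and 71.5 CPM there, and Zbtb16 21.5, 16.7 and 37.5 CPM. In S2, S5, S6 and S4, the run 1 libraries of the same groups, Fkbp5 was 20.2, 9.38, 9.93 and 8.67 CPM. Tsc22d3 was 107, 42.0, 70.3 and 58.9 CPM in these, and Zbtb16 14.3, 15.7, 5.10 and 8.35 CPM. The part of these genes in the levels of the clock genes was not tested.

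The genes whose group-centred pattern over the 17 libraries was most like that of Arntl and of Dbp were sought among 14044 genes with a mean CPM of at least 1. The 10 clock genes were left out of this ranking and set beside it. For Arntl, Clock (r = 0.89) lay above all the genes ranked. Outside the 10 genes, the highest were Adamts4 (0.88), Spon2 (0.87), Fancf (0.87), Leo1 (0.87) and Brf2 (0.85). At the opposite end were Hlf (−0.87), Gm14308 (−0.85), Amy1 (−0.84), Gm11967 (−0.84) and Zfp971 (−0.83), and only Hlf and Gm14308 lay below Ciart, at −0.84. For Dbp, Tef (0.93), another PAR bZip factor, ranked first and was the only gene ranked above Per3 (0.88). Next outside the 10 genes were Tgfbr3 (0.83), Art5 (0.80), Chrd (0.80) and Dym (0.79). The lowest for Dbp were Mphosph6 (−0.78), Adamts4 (−0.75), Scyl3 (−0.74), Tipin (−0.74) and Trmt10c (−0.73). With the run means removed as well, Tef and Dbp correlated at 0.96 and Hlf and Arntl at −0.77. The genes named as highest for Arntl were then at 0.73 (Fancf) to 0.84 (Brf2). All these values are the ends of a ranking of 14044 genes over 17 libraries, so their size is partly due to the selection.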

How the data were processed

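Polyadenylated RNA of the left ventricular apex was sequenced by the authors, aligned to mm10 (STAR 2.3.7 and Partek Flow are named in the submitters' processing notes), and deposited as CPM with 0.0001 added to each value. The paper names a strand-specificity reagent for library preparation, but the counting tool and its strand setting are not given in the sources used here. The authors removed 3 libraries, 1 of them a TAC Veh library that clustered with Sham, and these were not analysed here. Groups came from the labels, and no column of values was left unmapped.

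The 10 genes and all gene lists were chosen with earlier results of these data known. log2 of the deposited CPM was fitted with limma 3.58.1 in R 4.3.3 (lmFit, contrasts.fit, eBayes with trend), with 1 mean per group, over 16218 genes with CPM of at least 0.5 in at least 3 libraries. A gene was called at a Benjamini-Hochberg adjusted p of 0.05 or less over all genes tested, and the study's unadjusted threshold was an alternative. Each of the 10 genes was also tested by an exact permutation test, two-sided. Over both treatments this test compared the mean of all TAC libraries with that of all Sham libraries, whereas limma compared means of group means. TMM scaling trimmed 30% of log ratios and 5% of levels, with depths estimated from the step between low values. Only 81.5 to 84.1% of low values lay within 0.02 steps of a whole number of steps, so reads could not be recovered and no count model was used. Intervals cover the spread between libraries only. All 10 genes are named in each comparison. From the other clock lists up to 5 called genes with the smallest p are named, from the stress lists up to 3, and the 5 most and least alike genes of Arntl and Dbp. Some calls in these lists are given only as counts. Where none was called, the 2 genes with the smallest p are named only for the list of 13, between TAC 29P and TAC Veh. Hspa1a, Klf15 and Myl7, and the genes given for the run, were singled out after their values were seen. Promoter windows are RefSeq sequences, and overlapping exons were read from GENCODE vM21. The limma step was tested on simulated data. Alternatives were other scalings, constants of 0.1 and 1, other filters, the run as a covariate, only the groups compared, and each library left out, with those on atrial libraries and run 1 added after the data had been seen. The fit within run 1 had 1 mean for TAC and 1 for Sham, without regard to treatment. Python 3.11.15 with numpy 2.4.6 and pandas 2.3.3 was used for the rest.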

Additional observations from a re-analysis of the deposited data

Results flagged for a closer look

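Per3 in Sham Veh held 1 library far from the others. On the log2 scale, S13 (43.5 CPM) stood above the other 4 libraries (12.7 to 16.2 CPM) by a gap of 0.803 of the group's range, over Dixon's 95% critical value of 0.71 for 5 libraries. Of the 20 sets of values tested (10 genes in the 2 groups with more than 3 libraries) this was the only one, and chance gives about 1 in 20. S13 belonged to run 2 with S12 and S14, which were the highest for Per3 in their own groups.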

How the results depend on the processing

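No paired analysis was possible because the library numbers are unique and no number is shared between groups. The number of clock genes called changed with the settings as follows. For TAC against Sham in Veh mice (0 called), an unadjusted p of 0.05 gave 3 and leaving out 1 library gave 0 to 2. For TAC against Sham in 29P mice (2 called), an unadjusted p gave 4, TMM scaling 1, median-of-ratios scaling 1, totals without mitochondrial-encoded genes 1, the run as a covariate 0, and leaving out 1 library 0 to 6. The gene called with TMM or median-of-ratios scaling was Nr1d2, lower in TAC (−0.69 and −0.72). For TAC 29P against TAC Veh (0 called), an unadjusted p gave 2, and for the interaction (0 called) it gave 1. For TAC against Sham over both treatments (4 called), TMM gave 0, median-of-ratios scaling 0, totals without mitochondrial-encoded genes 1, run 1 alone 1, the run as a covariate 3 (Nr1d1, Clock and Per1, without Npas2 and Arntl), leaving out S18, S19 and S20 gave 2, and leaving out 1 library 1 to 4. In the last comparison Clock turned to −0.00499 with median-of-ratios scaling. Over 1610 values of single clock genes under the alternatives, 1539 kept their side of the threshold, of which 70 changed sign without a call, 52 lost a call, 18 gained one and 1, Clock above, reversed. Counts for 29P within Sham were 0 under every setting run. Groups of 3 limit all comparisons, and the exact permutation p cannot go below 0.0119 for 6 against 3 libraries or 0.0179 for 3 against 5.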
